A study of Homo sapiens with 6 samples.

Results

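The abundant nuclear and snoRNA-host noncoding RNAs are long RNAs that encode no protein and are present at many copies in most human cells. The 10 genes, MALAT1, NEAT1, GAS5, SNHG1, SNHG5, SNHG6, SNHG8, EPB41L4A-AS1, ZFAS1 and OIP5-AS1, were taken by name from the gene table, in which Ensembl identifiers were matched to symbols, and their mean TPM was compared between the groups, with a listed value of 0.0001 read as 0. They were 10 of the 58174 genes in the table and 10 of the 14088 annotated as lncRNA genes. The study asked how loss of FTO, an enzyme that removes methyl groups from N6-methyladenosine (m6A) in RNA, changed the RNA of AGS cells, an established human gastric adenocarcinoma line. Of the 6 libraries sequenced, 3 were of cells given a negative control siRNA (si-NC) and 3 of cells given an siRNA against FTO (si-FTO). By the genotype label the si-NC cells were wild type and the si-FTO cells FTO-/-, but the titles and the methods describe transfected siRNA, so the groups are named here by siRNA. Both groups shared the AGS line, labelled as stomach, Trizol extraction of total RNA and a KAPA stranded kit. Whether the 3 libraries of a group came from separate cultures was not stated. TPM is a share of all transcripts counted, scaled by transcript length to a fixed total, and the table gave 1 mean per group. The spread between libraries, and the depth, are therefore unknown, no p-value could be computed from these means, and none of the differences given here has a replicate check. The authors' own p-values per gene were not used.

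FTO itself was read first, as a check of the labels. FTO (chr16:53735604-54192424 in GRCh37) averaged 33.1 TPM in si-NC against 7.27 TPM in si-FTO, for a log2 ratio of -2.05. Here and below, log2 ratios are of si-FTO over si-NC with a pseudocount of 1 TPM, which understates the change of genes at low levels. The target was lower in the group labelled as depleted, and it was not at 0. Markers of a gastric epithelial line did not give one picture of the cells. All 10 were in the table, and their TPM added up to 86.1 in the control group and 5340 in si-FTO. KRT8, the most abundant in si-FTO, was at 10.8 and 3139 TPM. KRT18, the most abundant in si-NC, was at 52.1 and 1851 TPM. KRT7 was listed at 0 in si-NC and stood at 253 TPM in si-FTO. EPCAM, which most epithelial cells carry, was at 1.22 and 0.113 TPM, and CDH1, which encodes E-cadherin, was at 3.67 and 0.685 TPM. The intestinal factor CDX2 was at 18.1 TPM in si-NC but listed at 0 in si-FTO. TFF1, a peptide of the gastric surface, was listed at 0 in both groups. Of the 8 epithelial markers with enough TPM to compare, 5 were at least 2-fold higher in si-FTO and 2 at least 2-fold lower. The 6 mesenchymal markers summed to 646 and 819 TPM, with VIM the most abundant at 440 and 752 TPM. Of the 5 compared, however, 3 were at least 2-fold lower and 1 higher, with a median log2 ratio of -1.56. CDH2, which encodes N-cadherin, was at 53.7 and 1.25 TPM, and SPARC, a matrix protein gene, was at 114 and 20.7 TPM. The 6 neuronal-type markers summed to 442 and 19.3 TPM. Among them UCHL1 was the most abundant in si-NC, at 303 TPM, and stood at 0.0204 in si-FTO. The neurofilament gene NEFL was at 62.7 TPM in si-NC but listed at 0 in si-FTO. The 4 blood markers summed to 2.58 and 7.25 TPM, with PTPRC listed at 0 in both. Most of that sum was CD68, at 1.49 and 6.42 TPM, while HBB was at 1.08 and 0.829 TPM. These markers moved with the same groups as every value below, and their part in the results was not tested. Markers this far apart leave it uncertain whether the 2 groups were the same cells apart from the siRNA. A difference between the cells and an effect of the siRNA cannot be told apart in any ratio given here. In bulk RNA, a change in the kinds of cells and a change of RNA per cell cannot be told apart.

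MALAT1 and NEAT1 are transcribed side by side, stay in the nucleus and gather at nuclear bodies, MALAT1 at splicing speckles and NEAT1 in paraspeckles, which form around it. The snoRNA hosts are made for their introns: the exons are spliced into an RNA that often decays fast on ribosomes by nonsense-mediated decay, while the introns are trimmed into small nucleolar RNAs, which guide the methylation (C/D class) or pseudouridylation (H/ACA class) of ribosomal RNA. Many hosts start with a run of pyrimidines, as ribosomal protein genes do, and their levels are known to shift with growth and translation. MALAT1 is also among the RNAs best known to carry m6A.

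The 3′ ends of MALAT1 and of the long form of NEAT1 have no poly(A) tail added in the usual way, and they are shown because the 2 genes with the largest ratios share this unusual end. Each ends in an A-rich tract that folds with 2 U-rich words into a triple helix, and a tRNA-like stretch just downstream is cut off by RNase P. In both lines below the sequence is from GRCh37, plus strand, and the capitals mark the 2 U-rich words and then the A-rich tract. MALAT1 spans chr11:65273500-65273648 and NEAT1 spans chr11:65212922-65213072.
MALAT1: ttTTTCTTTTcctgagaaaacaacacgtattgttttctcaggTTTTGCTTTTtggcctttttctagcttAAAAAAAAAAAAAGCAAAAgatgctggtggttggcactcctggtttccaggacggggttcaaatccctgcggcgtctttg
NEAT1: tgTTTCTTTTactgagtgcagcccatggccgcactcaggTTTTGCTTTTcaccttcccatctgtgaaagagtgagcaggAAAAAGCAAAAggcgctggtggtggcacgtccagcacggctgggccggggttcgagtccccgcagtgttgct
The U-rich words have the same letters in both genes. They stand 32 bases apart in MALAT1 and 29 in NEAT1, and the A-rich tract is 19 bases long in MALAT1 and 11 in NEAT1. The 61 bases after the tract match at 27 positions, and the longest word they share is GCTGGTGGT, 9 bases. The annotated NEAT1 gene ends on the last base of its tract, whereas the annotated MALAT1 gene runs past it, from a tract that ends at 65273587 to a gene end at 65275544.

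Among the snoRNAs inside the hosts, 4 had a value in the table, and they are shown because each can be set beside its own host. They come from GRCh37, plus strand. SNORD12C lies at chr20:47895477-47895565, SNORD12B at chr20:47896856-47896946 and SNORD12 at chr20:47897220-47897309, all within the ZFAS1 gene. SNORA13 lies at chr5:111497182-111497314, within EPB41L4A-AS1. Capitals mark the C box (TGATGA) and the D box (CTGA) of the C/D snoRNAs and the ACA box of SNORA13.
SNORD12C: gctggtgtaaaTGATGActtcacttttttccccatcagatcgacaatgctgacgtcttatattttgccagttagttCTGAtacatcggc
SNORD12B: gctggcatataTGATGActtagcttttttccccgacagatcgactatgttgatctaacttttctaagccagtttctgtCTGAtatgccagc
SNORD12: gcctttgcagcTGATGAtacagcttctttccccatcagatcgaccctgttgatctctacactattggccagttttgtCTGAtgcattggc
SNORA13: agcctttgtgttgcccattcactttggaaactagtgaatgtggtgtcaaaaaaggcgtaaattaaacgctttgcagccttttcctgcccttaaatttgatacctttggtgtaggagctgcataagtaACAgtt
The 3 snoRNAs of ZFAS1 are alike in length, 89, 91 and 90 bases, and in each the C box starts at base 12.

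Start sites are shown for 3 hosts that went different ways and have a run of pyrimidines near the start, as RefSeq gives them in GRCh38.p14. Each line runs from 20 bases before the annotated start, and capitals mark the longest run of pyrimidines in the 40 bases around it. SNHG5 is at chr6:85678704-85678753 on the minus strand. SNHG8 is at chr4:118278742-118278791 and ZFAS1 at chr20:49278622-49278671, both on the plus strand.
SNHG5: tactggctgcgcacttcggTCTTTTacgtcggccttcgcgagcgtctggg
SNHG8: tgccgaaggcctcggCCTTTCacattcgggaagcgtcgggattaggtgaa
ZFAS1: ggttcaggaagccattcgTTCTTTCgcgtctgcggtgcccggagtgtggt
The run was 6 bases long in SNHG5 and SNHG8 and 7 in ZFAS1. A run of at least 6 was found in 38.8% of the 35116 human start windows in the RefSeq table and one of at least 7 in 25.6%, so a run of this size is common. The table held 9 windows for 8 of the 10 genes, and NEAT1 and SNHG6 were not among them. Of the other hosts with a window, GAS5 and EPB41L4A-AS1 had a longest run of 4 bases in it, a length reached in 79.4% of windows. A window is set by the annotated start, so a run at another start of the same gene is not counted. SNHG1 had a run of 7 at the far upstream end of its window and another of 7 just after its start. In these windows the run was 6 in SNHG5, which was lower in si-FTO, and 4 in GAS5 and 7 in ZFAS1, which were higher. Which starts were used in these cells, and whether the run had a part in the ratios, was not tested.

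Most of the 10 noncoding RNAs were more abundant in si-FTO, and 1 host, SNHG5, went the other way. Of the 10, 6 were at least 2-fold higher in si-FTO (MALAT1, NEAT1, SNHG6, ZFAS1, GAS5 and OIP5-AS1), against 11.4% of the 20493 genes compared, those reaching a mean of 0.5 TPM in either group or both, and 11.9% of the 3215 lncRNA genes among them. SNHG5 alone was at least 2-fold lower, against 17% of all genes compared and 14% of the lncRNA genes. The other 3, SNHG1, EPB41L4A-AS1 and SNHG8, were within 2-fold with ratios above 1, so that 9 of 10 had a log2 ratio above 0. For protein-coding genes the shares were 12% higher and 19.1% lower. All 10 passed the filter in both groups. The median log2 ratio of the 10 was 1.12, beside -0.20 over all genes compared and -0.14 over lncRNA genes. Another scaling of the groups moved the median of all genes from -0.20 to -0.03, and the 10 ratios are therefore also given relative to the median where they are largest. Relative to it, MALAT1 stood at 2.63 and SNHG5 at -1.59 on the log2 scale. Together the 10 RNAs made up 892 TPM in the control group and 1455 in si-FTO, a ratio of 1.63. The nearest to the 2-fold line were OIP5-AS1 (1.11) and GAS5 (1.13) past it, and EPB41L4A-AS1 (0.67) and SNHG1 (0.66) short of it.

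**Figure D1:**
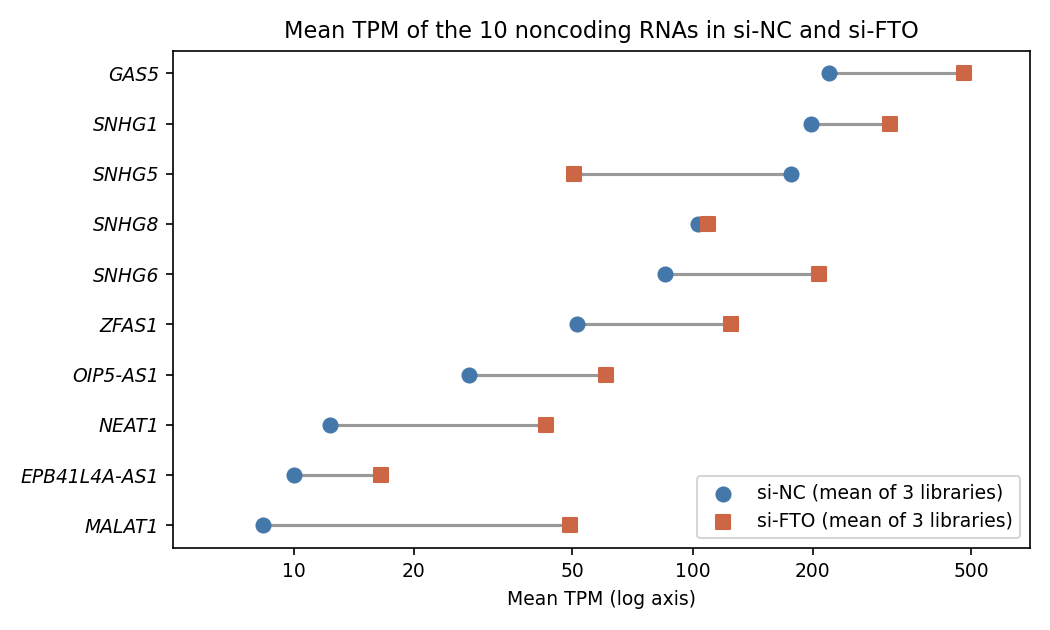
Mean TPM of each noncoding RNA on a log axis, with a circle for the si-NC mean, a square for the si-FTO mean and a line joining them; no error can be drawn because the table gives 1 mean per group of 3 libraries. SNHG5 is the 1 gene whose square lies to the left, at 50.3 against 177 TPM, and the longest line to the right is that of MALAT1, from 8.40 to 49.4 TPM.

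The order of the RNAs by level changed with the groups. In si-NC the order from the most abundant was GAS5, SNHG1, SNHG5, SNHG8, SNHG6, ZFAS1, OIP5-AS1, NEAT1, EPB41L4A-AS1 and MALAT1. In si-FTO it was GAS5, SNHG1, SNHG6, ZFAS1, SNHG8, OIP5-AS1, SNHG5, MALAT1, NEAT1 and EPB41L4A-AS1. GAS5 and SNHG1 kept the top 2 places, and SNHG5 went from the third place to the seventh. With no spread, it cannot be said which neighbours in these orders differ.

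MALAT1 and NEAT1, the nuclear body RNAs, had the largest ratios of the 10 and were scarce in si-NC for RNAs known for their abundance. MALAT1 (chr11:65265111-65275544, GRCh37, plus strand) was at 8.40 TPM in si-NC against 49.4 TPM in si-FTO. Its log2 ratio was 2.42, a 5.88-fold ratio of the means, and 3.53% of the genes compared had a higher log2 ratio. By TPM it ranked 307 among the lncRNA genes in si-NC and 32 in si-FTO. NEAT1 (chr11:65190245-65213011, plus strand) was at 12.4 TPM in si-NC against 42.8 TPM in si-FTO. The log2 ratio of NEAT1 was 1.72, a 3.47-fold ratio, and 5.95% of genes had a higher one. Its rank went from 196 to 40. Both were higher in si-FTO, MALAT1 by more, and their order turned over: MALAT1 was at 0.680 times the level of NEAT1 in si-NC and 1.15 times in si-FTO. The labels name total RNA, and the sources used here do not say how ribosomal RNA was removed. The values are per gene, so the short and the long form of NEAT1 cannot be told apart.

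The coding gene before this pair did not share the size of the change. FRMD8, before NEAT1, was at 15.2 TPM in si-NC against 17.1 TPM in si-FTO, for a log2 ratio of 0.16. Between NEAT1 and MALAT1, the pseudogene FAUP4 was at 1.23 and 30.3 TPM, a log2 ratio of 3.81. Its parent gene FAU, which encodes a ubiquitin-like protein joined to a ribosomal protein, was at 366 and 497 TPM, a log2 ratio of 0.44. Reads of a pseudogene and its parent can be exchanged in counting, so the value of FAUP4 is uncertain. The 20 compared genes nearest to MALAT1 had a median log2 ratio of 0.24. Of the 20, 5 were at least 2-fold higher and 0 lower, beside 11.4% and 17% of all genes compared. NEAT1 itself and FAUP4 were among those 5, so the count does not stand apart from the pair. It was added after the data were seen.

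Genes for the proteins that work with these RNAs did not pass 2-fold on the log2 scale used here, with its pseudocount of 1. Of 18 paraspeckle proteins, 0 were at least 2-fold higher and 0 lower, with a median log2 ratio of -0.22 beside -0.20 for all genes, and -0.01 beside -0.03 with median-ratio scaling. NONO, a core protein that binds NEAT1, was at 564 and 772 TPM, a log2 ratio of 0.45. SFPQ, its partner, was at 369 and 247 TPM, a log2 ratio of -0.58. The core partners thus had ratios of opposite sign, both within 2-fold. RBM12 had the lowest ratio of the list, with 25.7 and 12.4 TPM and a log2 ratio of -0.99, and it passed 2-fold as a plain ratio of the means (0.485) or once mitochondrially encoded genes were left out, and CPSF6, a cleavage factor, was at 45.4 and 47.0 TPM. Of 16 nuclear speckle and splicing proteins, 0 passed 2-fold in either direction (1, RNPS1, was lower with quantile normalization or without mitochondrially encoded genes) and the median was -0.29 (-0.08 with median-ratio scaling). RNPS1, a protein of the exon junction, was at 300.5 and 152.6 TPM, and U2AF1, which reads the 3′ splice site, was at 134 and 71.8 TPM. SRSF11 (119 and 129 TPM) and SRSF6 (145 and 155 TPM), both SR proteins of speckles, had the highest ratios of that list, at 0.11 and 0.09 on the log2 scale. The proteins known to bind MALAT1 at m6A sites or at its triple helix were lower by less than 2-fold, with a median of -0.59 over 4 (-0.38 with median-ratio scaling), and all 4 were below 0 under each scaling tried. RBMX was at 238 and 147 TPM, a log2 ratio of -0.69. HNRNPC, which binds a U-rich site that m6A opens, was at 898 and 580.2 TPM, a log2 ratio of -0.63. METTL16, which binds the triple helix, was at 20.5 and 13.8 TPM, and YTHDC1, a nuclear reader of m6A, was at 46.1 and 39.5 TPM. Among 11 genes for RNase P proteins and the tRNA 3′ nuclease ELAC2, which trim the tRNA-like stretch, 0 passed 2-fold (1, RPP25, with median-ratio scaling) and the median was -0.43 (-0.22 with that scaling). RPP25 had the highest ratio of them, with 41.6 and 78.3 TPM and a log2 ratio of 0.90, while POP7 (262 and 136 TPM) and RPP30 (64.2 and 33.1 TPM) were at -0.94 and -0.93.

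**Figure D2:**
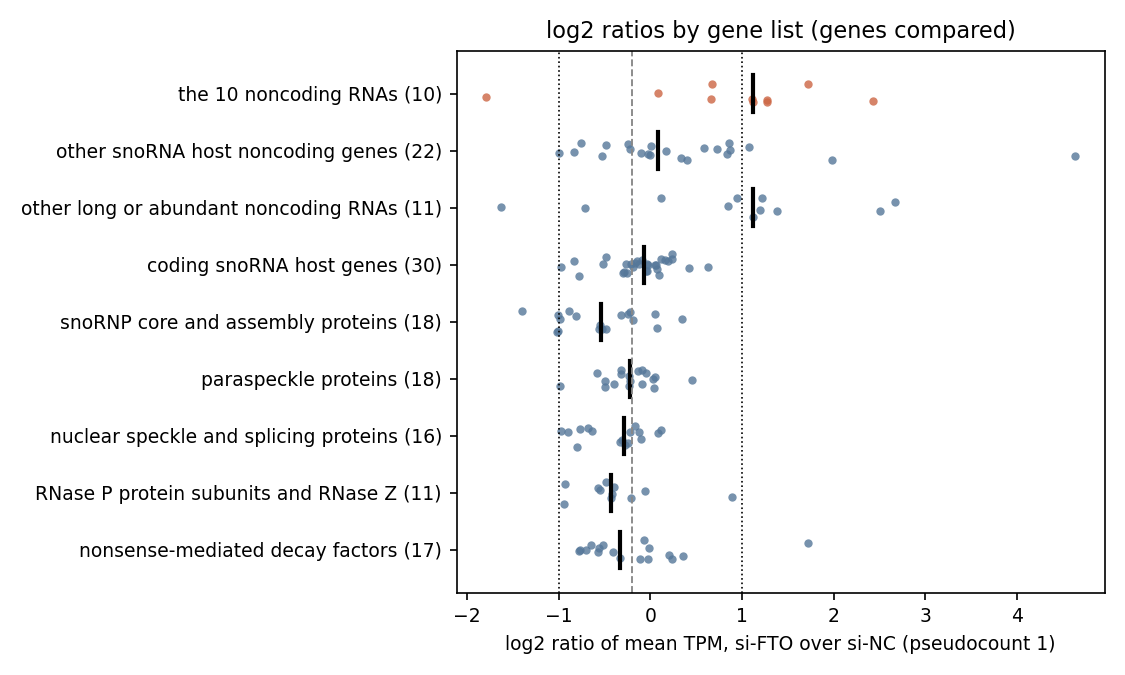
The log2 ratio of mean TPM, si-FTO over si-NC, for every compared gene of each list, with 1 point per gene, a black bar at the list's median, a dashed line at the median of all genes compared (-0.20) and dotted lines at 2-fold; the vertical scatter within a list has no meaning. The 10 noncoding RNAs have a median of 1.12, the coding snoRNA hosts -0.07 and the paraspeckle proteins -0.22.

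The letters GGACT, the form of the m6A consensus counted most often, were sought on the sense strand of 1 annotated transcript per gene as a description of sequence, not as sites of methylation. MALAT1 held 17 in 10434 bases, 1.63 per kb, and NEAT1 held 19 in 22743 bases, 0.835 per kb. GAS5 held 2 in only 768 bases, 2.60 per kb. SNHG5, the host that was lower, held 1 in 1316 bases, 0.760 per kb. The 10 RNAs together held 53, which is 0.952 per kb, beside 1.01 per kb over 18531 lncRNA transcripts, of which 60.6% held at least 1. The density over the 10 was thus close to that of lncRNA transcripts at large. No m6A was measured in this data set.

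The 7 snoRNA hosts differed among themselves, from a host 2.44-fold higher to one at 0.285 times its si-NC level. Of the 7, 3 were at least 2-fold higher (GAS5, SNHG6 and ZFAS1), 1 was lower (SNHG5) and 3 were within 2-fold. Together they made up 844 TPM in the control group and 1302 in si-FTO, a ratio of 1.54. GAS5 (chr1:173827697-173838020, minus strand), an RNA named for its rise in growth-arrested cells and known to bind the glucocorticoid receptor, was at 219 TPM in si-NC against 480 TPM in si-FTO. With a log2 ratio of 1.13 it was the most abundant of the 10 in both groups and ranked 4 among lncRNA genes in both. SNHG1 (chr11:62619450-62623425, minus strand), the host of SNORD22 and of SNORD25 to SNORD31, was at 198 and 313 TPM. Its log2 ratio was 0.66, and it ranked 5 in both groups. The most abundant hosts were thus both higher in si-FTO, and GAS5 went from 1.11 to 1.53 times the level of SNHG1.

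SNHG5 was the exception among the hosts. SNHG5 (chr6:86360209-86388650, minus strand), the host of SNORD50A and SNORD50B, was at 177 TPM in si-NC against 50.3 TPM in si-FTO. The log2 ratio was -1.79, and 92.8% of the genes compared had a higher one. Its rank among lncRNA genes went from 6 to 31. GAS5 was at 1.24 times the level of SNHG5 in si-NC and at 9.53 times in si-FTO. SYNCRIP, the nearest gene, an RNA-binding protein gene 6427 bases away on the same strand, was at 92.0 and 65.2 TPM, a log2 ratio of -0.49. A coding gene model that overlaps SNHG5 on the same strand, ENSG00000271793, was at 4.39 and 4.60 TPM, and reads of the shared stretch cannot be told apart. Of the 20 compared genes nearest to SNHG5, 5 were at least 2-fold lower and 2 higher, beside 17% and 11.4% of all genes compared. Their median was -0.63, so SNHG5 was lower than most of the genes around it. On the other side, the nearest compared gene, CGA, lay 1406565 bases away at 0.674 and 4.39 TPM.

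ZFAS1 and SNHG6 had almost equal ratios. ZFAS1 (chr20:47894715-47916137, plus strand), the host of the SNORD12 family, was at 51.2 TPM in si-NC against 125 TPM in si-FTO, for a log2 ratio of 1.27. SNHG6 (ENSG00000245910), the host of SNORD87, was at 85.2 and 208 TPM, a log2 ratio of 1.28. Both means were 2.44-fold higher, and SNHG6 moved from rank 14 to 7 and ZFAS1 from 23 to 13. The genes on the 2 sides of SNHG6 went the other way: SGK3, a kinase gene, was at 8.25 and 3.32 TPM (-1.10 on the log2 scale), and TCF24, a transcription factor gene, was at 3.76 and 0.481 TPM (-1.68). The 20 compared genes around SNHG6 had a median log2 ratio of -0.53. Among them 5 were at least 2-fold lower and 0 higher, beside 17% and 11.4% of all genes compared. MCMDC2, which overlaps SNHG6 on the other strand, was at 0.0998 and 0.159 TPM, too low to compare.

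SNHG8 and EPB41L4A-AS1, which each hold 1 H/ACA snoRNA, changed least in absolute TPM. By log2 ratio, SNHG1 (0.66) changed about as little as EPB41L4A-AS1. SNHG8 (chr4:119199858-119206471, plus strand), the host of SNORA24, was at 103 and 109.5 TPM, a log2 ratio of 0.08. Across the other strand of SNHG8 lies the protease gene PRSS12, which was at 9.63 TPM in si-NC against 0.150 TPM in si-FTO, for a log2 ratio of -3.21, so the 2 overlapping genes differed widely. EPB41L4A-AS1 (chr5:111496223-111500515, plus strand), the host of SNORA13, was at 10.04 and 16.5 TPM, a log2 ratio of 0.67. It was the least abundant of the hosts in both groups. EPB41L4A, the coding gene on the other strand, was at 2.69 and 7.39 TPM, a log2 ratio of 1.19.

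**Figure D3:**
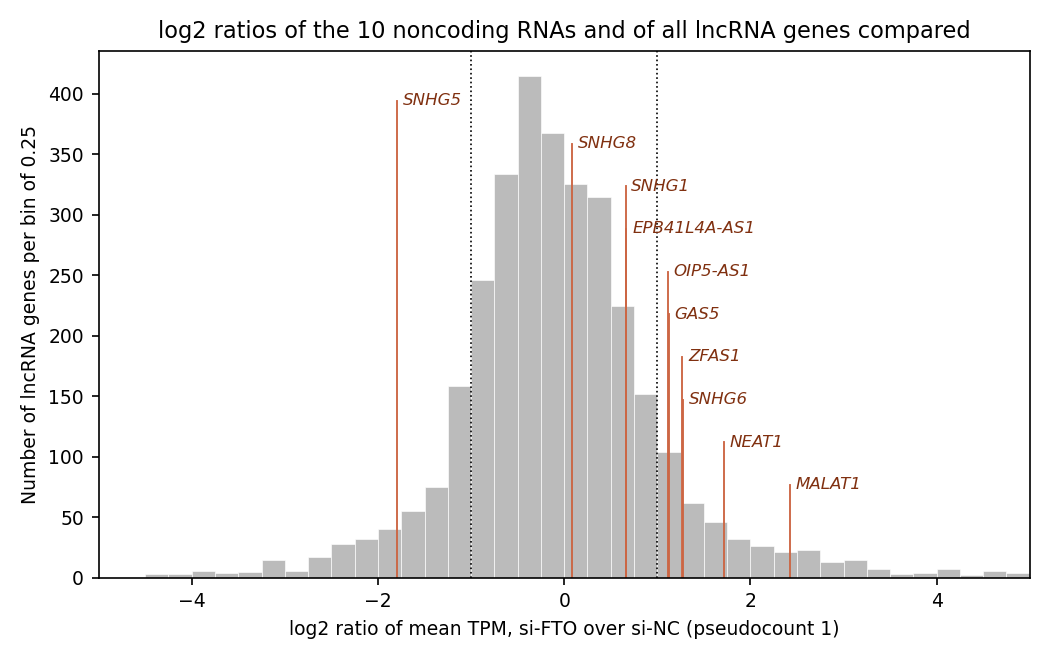
Grey bars count the lncRNA genes compared (3215 in all, those beyond 5 in size not drawn) in bins of log2 ratio of mean TPM, si-FTO over si-NC, and each thin line marks 1 of the 10 noncoding RNAs; line height has no meaning and dotted lines mark 2-fold. SNHG5 at -1.79 lies in the left tail, SNHG8 at 0.08 near the middle, and MALAT1 at 2.42 in the right tail.

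A host and the snoRNAs cut from its introns need not change alike, since the spliced RNA and the trimmed intron decay at different rates. By RefSeq gene spans, 28 snoRNAs lie within 7 of the 10 genes, of which 24 are named SNORD and 3 SNORA, and 4 of the 28 had a value matched by position. In ZFAS1, SNORD12B was at 10.5 TPM in si-NC against 22.8 TPM in si-FTO, for a log2 ratio of 1.04. SNORD12 was at 6.83 and 20.5 TPM, a log2 ratio of 1.46. SNORD12C was at 7.37 and 6.73 TPM, a log2 ratio of -0.11. Of the 3 snoRNAs in this host, 2 were thus higher with ZFAS1 (1.27) and 1, whose sign turned with median-ratio scaling, was near equality, although their sequences, printed above, have the same boxes and nearly the same length. SNORA13 was at 6.62 and 5.64 TPM, a log2 ratio of -0.20 (0.05 with median-ratio scaling), beside 0.67 for its host EPB41L4A-AS1. Values of RNAs this short are uncertain, since few sequenced fragments fit in them and reads of the unspliced host fall on the same bases. All 898 snoRNA genes of the table summed to 1331 TPM in si-NC and 1228 in si-FTO.

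The hosts were also set beside other genes that carry snoRNAs. Of 22 other noncoding snoRNA hosts, 3 were at least 2-fold higher, a count near the 11.4% of all genes and 11.9% of lncRNA genes. None was at least 2-fold lower, beside 17% and 14%. With median-ratio scaling 6 were higher, beside 13.6% of all genes, and without mitochondrially encoded genes 1, SNHG30, was lower. The median log2 ratio of the 22 was 0.09, and it was 0.29 with median-ratio scaling and 0.24 with quantile normalization. SNHG14, the long host of the imprinted SNORD115 and SNORD116 clusters, was at 0.164 TPM in si-NC against 27.9 TPM in si-FTO, for a log2 ratio of 4.63. SNHG19 was at 32.9 and 133 TPM, a log2 ratio of 1.99. SNHG32, named because it completes that count, was at 103 and 217 TPM. At the other end, SNHG30 was at 30.4 and 14.8 TPM (-0.99, past 2-fold without the pseudocount) and SNHG20 at 27.0 and 14.8 TPM (-0.83). None of the 22 was as low in ratio as SNHG5. Of 30 coding snoRNA hosts, mostly genes of ribosomal proteins and translation factors, 0 passed 2-fold in either direction (1, RACK1, was lower with quantile normalization or without mitochondrially encoded genes) and the median was -0.07, which turned to 0.14 with median-ratio scaling. EIF4A2, a translation factor, was at 170.4 and 264 TPM (0.63) and the ribosomal protein gene RPL27A at 636 and 855 TPM (0.43), while RACK1, a ribosome scaffold, was at 2080 and 1056 TPM (-0.98) and RPS2 at 7039 and 3945 TPM (-0.83). Coding hosts therefore spread less than the noncoding ones.

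Genes for the proteins that bind and assemble snoRNAs were compared next. Of 18, 0 were at least 2-fold higher and 4 lower, a count near the 17% of all genes that were lower, with a median log2 ratio of -0.53 beside -0.20. The median was -0.32 and only NHP2 was 2-fold lower with median-ratio scaling, 2 were with quantile normalization or rescaling over protein-coding genes, and 5 were without mitochondrially encoded genes. NHP2, a core protein of H/ACA particles, was at 922 and 349 TPM, a log2 ratio of -1.40. ZNHIT6, an assembly factor of C/D particles, was at 35.1 and 16.9 TPM, a log2 ratio of -1.01. NUFIP1 (13.1 and 6.05 TPM) and RUVBL2 (292 and 145 TPM), which complete the 4 and also act in assembly, were just past 2-fold. The highest ratios were those of NOP10, another H/ACA core protein, at 373 and 476 TPM (0.35), and of RPAP3, at 30.4 and 32.1 TPM (0.08). Nonsense-mediated decay, which is known to degrade spliced GAS5 and other hosts, was followed through 17 factors. Of these, 1 was at least 2-fold higher and 0 lower, and the median was -0.33 (-0.12 with median-ratio scaling, where 8 of 17 in place of 4 were above 0). The 1 was UPF3A, at 12.4 and 43.1 TPM, a log2 ratio of 1.71. UPF2 was at 14.0 and 18.2 TPM (0.36). SMG5 was at 141 and 81.5 TPM (-0.78), and SMG6, the endonuclease of the pathway, was at 17.6 and 9.92 TPM (-0.76).

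OIP5-AS1, the antisense RNA, is transcribed against OIP5 and is known for a conserved site for the microRNA miR-7. OIP5-AS1 (chr15:41576156-41614590, plus strand) was at 27.5 TPM in si-NC against 60.6 TPM in si-FTO, for a log2 ratio of 1.11 and a 2.20-fold ratio. OIP5, on the other strand, was at 32.7 and 38.1 TPM, a log2 ratio of 0.22. NUSAP1, a mitotic spindle gene that overlaps its end on the same strand, was at 101 and 127 TPM, a log2 ratio of 0.33. CHP1, 2070 bases before it on the same strand, was at 46.2 and 139 TPM, a log2 ratio of 1.57. OIP5-AS1 therefore lay nearer to the gene before it than to those it overlaps.

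Others of the 10 also share bases or a start region with a coding gene. The kit keeps strand, but the sources used here do not say that strand was used in counting, so reads of overlapping genes cannot be told apart. ZNFX1, which starts on the other strand of ZFAS1 with 249 bases in common, was at 11.7 and 29.5 TPM, a log2 ratio of 1.26 beside 1.27 for ZFAS1. SLC3A2, an amino acid transporter gene that starts 50 bases from SNHG1 and runs away from it, was at 206 and 527 TPM, a log2 ratio of 1.35 beside 0.66 for SNHG1. In these 2 places both partners were higher in si-FTO. ZBTB37, which shares 801 bases with GAS5 on the other strand, was at 2.76 and 2.31 TPM, and GAS5-AS1 was at 1.74 and 1.01 TPM. WDR74 and the snRNA gene RNU2-2P, both on the minus strand, start at the same base, 10168 bases from SNHG1. WDR74 was at 67.6 and 145.9 TPM, and RNU2-2P at 0.503 and 0.169 TPM. Over the 29 compared genes that overlap or lie nearest to the 10, 7 were at least 2-fold higher and 6 lower, beside 11.4% and 17% of all genes. Their median log2 ratio was 0.05. Some of the calls rest on low means in 1 group, as in CGA (0.674 TPM), TCF24 (0.481 TPM) and FAUP4 (1.23 TPM). CGA also lay 1406565 bases from its RNA.

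**Figure D4:**
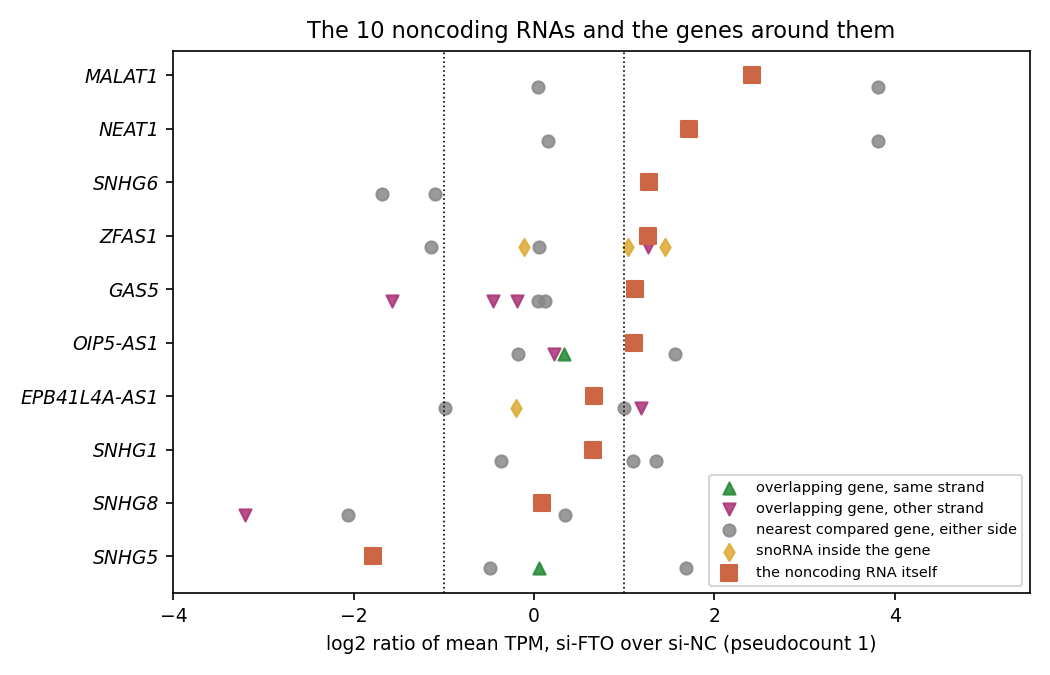
The log2 ratio of mean TPM, si-FTO over si-NC, of each noncoding RNA (square) and, just under it, of the compared genes that overlap it (triangles, by strand), the nearest compared genes on its sides (circles) and the snoRNAs inside it (diamonds); dotted lines mark 2-fold. ZFAS1 and ZNFX1 lie together at 1.27 and 1.26, while SNHG8 at 0.08 and PRSS12 at -3.21 lie far apart.

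Among other long or abundant noncoding RNAs, more were also higher than lower in si-FTO. Of 16 listed, 14 were found in the table and 11 compared, with a median log2 ratio of 1.12. Of the 11, 6 were at least 2-fold higher and 1 lower, beside 11.4% and 17% of all genes. With median-ratio scaling or quantile normalization 8 were higher, beside 13.6% and 13.7% of all genes. RMRP, the RNA of the RNase MRP enzyme, was near the floor in si-NC, at 0.613 and 9.24 TPM (2.67). CYTOR, a cytoplasmic lncRNA, was at 10.5 and 64.2 TPM (2.50). MIR17HG, the host of a microRNA cluster, was at 15.0 and 4.19 TPM (-1.62), and JPX was at 35.6 and 21.4 TPM (-0.71). As a share of all lncRNA TPM the 10 RNAs made up 6.12% in si-NC and 6.56% in si-FTO. That share was weighed down by 1 gene: the imprinted RNA H19, chosen after its values were seen, was at 1.34 TPM in si-NC and 7791 in si-FTO. With H19 left out, the 10 made up 6.12% and 10.1%.

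The genes whose 2 means lay closest to those of MALAT1 and SNHG5 were sought among 8103 other genes that reached a mean of 10 TPM in both groups. For MALAT1 they were ZBTB38 (10.3 and 53.7 TPM), CLIP1 (10.5 and 50.9 TPM) and PARVA (10.5 and 48.7 TPM), at distances of 0.288, 0.289 and 0.294 on the log2 scale. MALAT1 itself was below 10 TPM in si-NC, so no gene at its own si-NC level could be chosen, and the 3 lie just above that minimum. For SNHG5 they were THOC3 (181 and 55.7 TPM), SENP3-EIF4A1 (202 and 56.6 TPM) and NT5C3B (214 and 51.0 TPM), at 0.148, 0.254 and 0.279. Likeness over 2 values is slight, and it says nothing of shared control.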

How the data were processed

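Total RNA of 3 si-NC and 3 si-FTO libraries of AGS cells was sequenced by the authors. Their methods name Bowtie and RSEM on hg19, whereas the submitters' processing notes name HISAT2; versions and annotation are not given in the sources used here. For each of 58174 genes the authors deposited the mean TPM of each group. Columns of the authors' own log2 ratio, p-value and q-value per gene, and a second table of the genes they called, were not used. Depth is unknown, because TPM keeps none.

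Symbols, coordinates and gene types came from GENCODE lifted to GRCh37, which with the table of gene names matched 55726 identifiers; snoRNA spans and start windows came from RefSeq, GRCh38.p14. Log2 ratios of mean TPM used a pseudocount of 1, with 0.0001 read as 0, for genes reaching a mean of 0.5 TPM in either group, and 2-fold as the threshold. No test could be run on the means. The named genes were the 10 RNAs, FTO, genes that overlap or neighbour each RNA, hosted snoRNAs, the 2 largest log2 ratios in each direction of each list, and the 3 genes closest in level to the highest and the lowest RNA; any other was picked with its values in view. Of the genes this rule covers, 2 are not reported here. The RNAs and the lists were chosen with earlier results of these data known. A planned limma fit over libraries could not be run on means. The alternatives were other pseudocounts, filters, thresholds and scalings. Calculations in Python (version 3.11.15), pandas (2.3.3) and numpy (2.4.6) were tested on simulated data, and figures used matplotlib 3.10.9.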

Additional observations from a re-analysis of the deposited data

How the results depend on the processing

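Under 12 alternatives, 11 of them planned, none of the 10 RNAs changed direction. The counts of 6 higher and 1 lower held at the 2-fold threshold under all of these pseudocounts, filters and scalings. Log2 ratios ranged from 2.41 to 2.62 for MALAT1, 1.70 to 1.92 for NEAT1, 1.05 to 1.34 for GAS5, 1.09 to 1.32 for OIP5-AS1, 0.03 to 0.30 for SNHG8 and -1.83 to -1.58 for SNHG5. The median of the 10 (1.12) became 1.13 with a pseudocount of 0.1, with no pseudocount and with TPM rescaled over protein-coding genes, 1.33 with median-ratio scaling, 1.09 with quantile normalization and without mitochondrially encoded genes, and 1.10 without these and the 50 most abundant genes, a setting chosen after seeing the data. The median of all genes moved to -0.03 with median-ratio scaling and to -0.07 with quantile normalization, and the higher share of all calls from 40.1% to 49.1% with each. With a 4-fold threshold 1 RNA passed, MALAT1, with 1 higher and 0 lower, and 4.76% of all genes were higher and 6.06% lower. With 1.5-fold, SNHG1 and EPB41L4A-AS1 passed too, and the shares were 18.8% and 31.2%. With no filter the shares were 4.02% and 6.003%, since more genes at or near 0 were counted. No paired analysis was possible because the table holds 1 mean per group, and for the same reason leaving out each replicate could not be run. The unknown depth and spread limit every value, most of all those of genes near 1 TPM and of snoRNAs.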
